A study of Rattus norvegicus with 174 samples.

Results

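The splicing regulators Rsrp1, Srsf2, Srsf3, Srsf4, Srsf5, Srsf7, Clk1 and Clk4 were followed in rats that had inhaled phosphine. They were found by their gene symbol in the platform annotation, and all 12 of their probe sets, of 31042 tested, are described, which makes 8 of the 13438 genes with a probe set of their own. The genes were selected on their differences between phosphine and air in these same arrays. Those differences are therefore given as a description, and the statement that a value was called serves as a label and not as evidence. Rsrp1 and Srsf2 have 2 probe sets each, Srsf3 has 3, and the others have 1.

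Phosphine is a fumigant gas that blocks mitochondrial cytochrome c oxidase. SR proteins, the products of the Srsf genes, carry an RNA-binding domain and a tail rich in arginine and serine, bind enhancers within exons and recruit the spliceosome to nearby splice sites. The CLK kinases, to which Clk1 and Clk4 belong, phosphorylate that tail and release SR proteins from nuclear speckles, the stores of splicing factors in the nucleus. Rsrp1 encodes another nuclear protein rich in arginine and serine. Many genes of these families control their own level by unproductive splicing, and mouse and human cells hold Clk1 transcripts with retained introns that are spliced after stress, so a probe set that reads 1 stretch of a transcript need not follow every isoform.

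Adult male Sprague-Dawley rats, with no genetic change named in the labels, breathed 660 ppm phosphine for 32.2 minutes in whole-body exposures. This is a product of 21252 ppm x min and 0.91 times the median lethal product (LCt50). Control rats breathed air, and different rats were taken 1, 3, 6 and 24 h later, under ketamine and xylazine with exsanguination. The series holds 174 arrays of 33 rats, with brain, heart, kidney, liver and lung from 30 rats and 24 blood samples. Each group in the solid tissues had 4 rats, except air at 6 h with 2. Blood had 4 exposed and 4 air samples at 1 h and at 3 h, 5 and 1 at 6 h, and at 24 h 2 exposed samples without a control. Rats are numbered within their exposure and hour, in the order of their labels.

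Values are log2 signals after RMA. They span 1.74 to 14.13 with a median of 4.41. Every tissue carried its own markers: the mean of the liver list was at least 13.1 in liver arrays, that of the brain list at least 10.8 in brain arrays, and that of the lung list at least 12.2 in lung arrays. In 11 arrays, 9 of them from exposed rats, the markers of another organ lay at least 4 log2 units above the tissue's median. These were 5 heart arrays, 1 kidney array, 2 liver arrays and 3 lung arrays, and member calls that ended without them are marked below. The heart of exposed rat 2 at 3 h had a liver list mean of 12.88 and a heart list mean of 10.98. That of exposed rat 1 at 24 h had 12.62 and 12.61. Differences between the ends of 3 control transcripts, a sign of RNA integrity, separated exposed from air rats in brain at 3 h, kidney at 6 h, liver at 1 h and blood at 6 h, by -0.155, 0.114, -0.147 and -0.301. The part of these arrays and of RNA integrity in the results was not tested. In whole tissue, fewer cells of a type and less RNA per cell cannot be told apart.

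Each probe set was compared between exposed and air rats of the same tissue and hour with limma, which pools the spread over all groups of a tissue. Differences are phosphine minus air on the log2 scale, ± SE, and called means an adjusted p (Benjamini-Hochberg, over all 31042 probe sets) under 0.05. In the 5 solid tissues Rsrp1 was the member with the most calls and with the deepest differences. It was lower in exposed rats at 1 h in every solid tissue. Srsf4, Srsf5 and Srsf2 were called higher in some tissues at the same hours, Clk1 was called lower in brain and lung, and Clk4 was called in none. The map of differences shows this split.

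**Figure D1:**
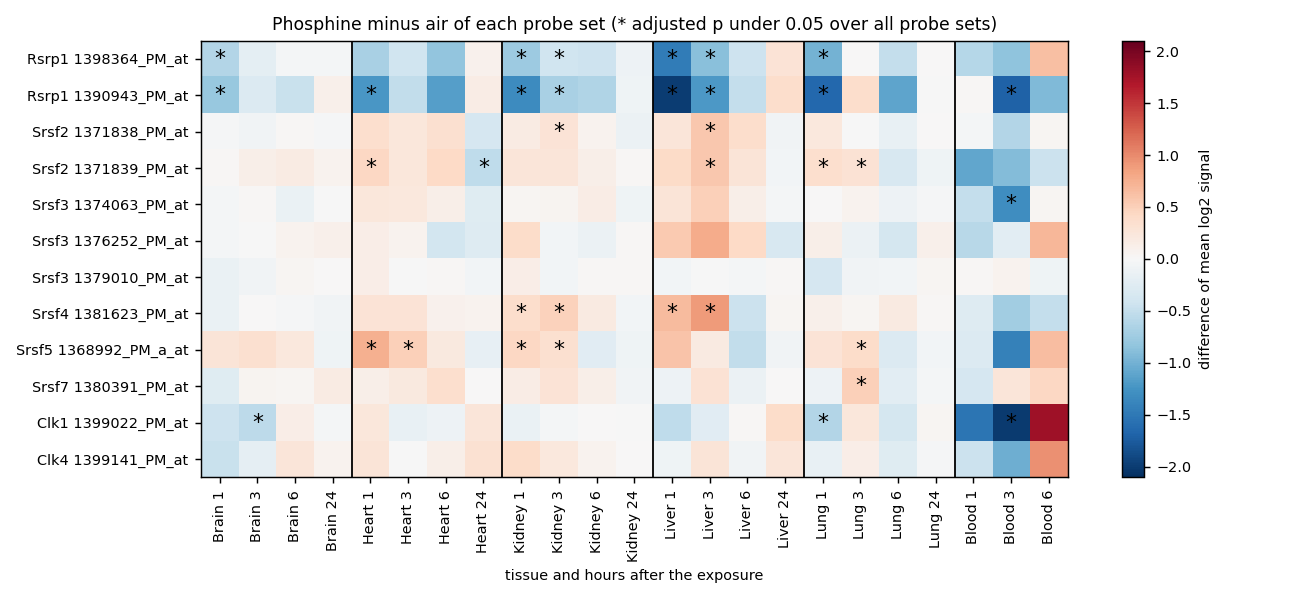
Difference of mean log2 signal (phosphine minus air, colour scale) for the 12 probe sets (rows) in each tissue at each hour after the exposure (columns), with asterisks for adjusted p under 0.05 over all probe sets. The rows of Rsrp1 are blue at 1 h in all 5 solid tissues, down to -1.99 in liver, while Srsf4 and Srsf5 are red in kidney and liver at 1 h and 3 h. At 24 h a single solid-tissue value has an asterisk, that of Srsf2 in heart at -0.54.

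The deepest Rsrp1 differences at 1 h were in liver. On the probe set with the higher mean, 1398364_PM_at, the 4 air livers at 1 h measured 9.44, 9.48, 9.83 and 9.92. The 4 exposed livers measured 7.92, 8.11, 8.20 and 8.54. No exposed liver reached the lowest air liver. The difference was -1.47 ± 0.19, a signal 2.78-fold lower. On the second probe set, 1390943_PM_at, the air livers measured 8.22, 8.65, 9.01 and 9.25 and the exposed livers 6.26, 6.65, 6.89 and 7.38. Its difference was -1.99 ± 0.28, a 3.96-fold lower signal, so both probe sets gave the same order. The measure of RNA integrity also separated exposed from air livers at that hour, as given above.

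The other solid tissues showed a lower Rsrp1 signal at 1 h as well. In lung the first probe set measured 10.03, 10.13, 10.64 and 10.65 in air rats and 9.05, 9.20, 9.55 and 9.70 in exposed rats, a difference of -0.99 ± 0.17. In kidney it measured 9.98, 10.08, 10.14 and 10.15 in air rats and 9.01, 9.31, 9.38 and 9.62 in exposed rats, a difference of -0.76 ± 0.11. In brain it measured 9.57, 9.81, 9.81 and 9.88 in air rats and 8.99, 9.03, 9.26 and 9.30 in exposed rats, a difference of -0.62 ± 0.11. The groups did not overlap in any of these tissues, and all of these values were called. Over all probe sets the groups at 1 h were apart for 5.02% in brain, 5.32% in heart, 6.64% in kidney, 5.66% in liver and 7.45% in lung, and at 3 h for 5.67% in brain, 7.34% in heart, 9.59% in kidney and 9.45% in liver. In heart the exposed rats, at 7.94, 8.11, 8.21 and 8.48, also lay below the air rats, at 8.56, 8.85, 9.02 and 9.03, but the difference of -0.68 ± 0.20 was not called (adjusted p = 0.114). The second probe set gave larger differences throughout, of -1.65 ± 0.25 in lung, -1.32 ± 0.18 in kidney, -1.22 ± 0.28 in heart and -0.80 ± 0.15 in brain, all called.

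At 3 h the tissues parted. Liver Rsrp1 was still lower, with exposed rats at 8.42, 8.97, 8.98 and 9.35 on the first probe set and air rats at 9.61, 9.65, 9.90 and 10.04, a difference of -0.87 ± 0.19. In kidney the exposed rats measured 9.64, 9.68, 9.79 and 9.86 and the air rats 10.08, 10.14, 10.18 and 10.26, a difference of -0.43 ± 0.11. Lung had no such gap. Exposed lungs measured 9.82, 10.07, 10.28 and 10.49 and air lungs 9.64, 10.21, 10.36 and 10.44, and the second probe set in lung gave 0.37 ± 0.25, which was not called. Without 1 exposed and 1 air lung that carried markers of another organ at that hour, the lung differences were -0.14 and 0.19 on the first and second probe set, neither called. Differences in brain and heart at 3 h on the first probe set were -0.20 ± 0.11 and -0.41 ± 0.20, with overlapping groups and no call. In heart the second probe set gave -0.52, also not called. Without the arrays that carried markers of another organ, the heart differences were -0.59 and -0.76 on the first and second probe set, neither called.

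At 6 h, with 2 air rats, Rsrp1 gave negative differences without a call. In heart the exposed rats measured 8.26, 8.27, 8.40 and 8.48 and the air rats 9.0 and 9.35, a difference of -0.82 ± 0.24 (adjusted p = 0.173). In lung the exposed rats measured 10.07, 10.18, 10.18 and 10.35 and the air rats 10.67 and 10.72, a difference of -0.50 ± 0.21. The exposed group lay wholly below the air rats in heart, kidney, liver and lung on both probe sets. With so few air rats, 22.5%, 21.3%, 15.4% and 15.3% of all probe sets had groups apart in those tissues, and 12.7% in brain. At 24 h the differences lay between -0.10 and 0.29 on the first probe set and between -0.09 and 0.37 on the second, with overlapping groups in every solid tissue.

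**Figure D2:**
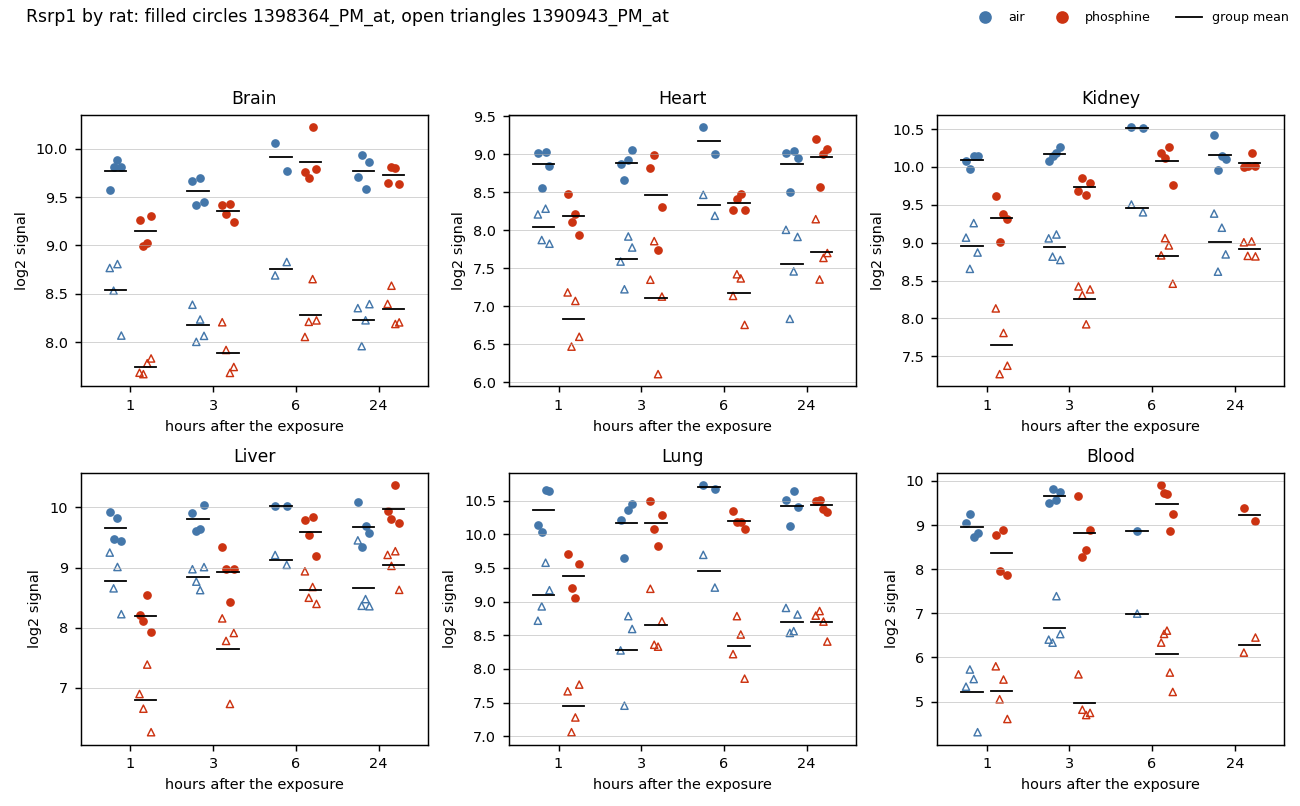
Rsrp1 log2 signal of each rat (points) against hours after the exposure in the 6 tissues, for the probe sets 1398364_PM_at (filled circles) and 1390943_PM_at (open triangles), with group means as lines. Exposed rats lie below air rats at 1 h in all solid tissues and at 3 h in kidney and liver, whereas the 24 h groups overlap.

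Rsrp1 was called in 6 of 20 pairs of solid tissue and hour on the first probe set and in 7 of 20 on the second, always lower. The calls at 1 h in kidney, liver and lung held when any single rat was left out. Those in brain ended on the first probe set without exposed rat 2 or 4 or air rat 2 or 3, with adjusted p up to 0.0622, and on the second without exposed rat 2 or air rat 1, 2 or 3, with adjusted p up to 0.0759. The heart call of the second probe set ended without exposed rat 2 or 5 or air rat 1, 2 or 3, with adjusted p up to 0.147, and at 0.0825 without the arrays that carried markers of another organ. Those at 3 h ended in kidney on the first probe set without exposed rat 1 or 3 or air rat 3 or 4 (up to 0.0746) and on the second without exposed rat 3 or air rat 1 or 3 (up to 0.1). In liver at 3 h they ended without exposed rat 3 or air rat 4 (up to 0.0627) and without exposed rat 3 or air rat 1 or 4 (up to 0.0874). A fit of only the 2 groups compared ended 7 of the 13 calls.

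Over all arrays, the Rsrp1 difference varied with the hour in liver and lung. Moderated F tests of the difference between the 4 times gave an adjusted p of 0.0169 in liver and 0.028 in lung for the first probe set, and 0.0234 and 0.00253 for the second. Without the arrays that carried markers of another organ these became 0.0587 and 0.0639, and 0.0828 and 0.00483, so that only the second probe set in lung still passed. On that probe set the lung air rats themselves varied between hours, without a call (F test in air rats, unadjusted p = 0.0024, adjusted p = 0.065). The part of the air rats in this result was not tested. In brain, heart and kidney neither probe set passed. Between the 5 solid tissues at 3 h, the second probe set gave an adjusted p of 0.00777, and the first gave 0.0512, or 0.0397 with the rat as a block. These tests rest on the same contrasts on which the genes were selected, so they describe the course and add no support.

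Among air rats, Rsrp1 had no exposure to respond to. The same air arrays enter the contrasts on which it was selected, so the values below are not independent of the selection. On the first probe set the mean of the 14 air rats was 10.37 ± 0.31 (SD) in lung, 10.19 ± 0.18 in kidney, 9.76 ± 0.25 in liver, 9.73 ± 0.18 in brain and 8.92 ± 0.22 in heart. The mean of 9 air blood samples was 9.26 ± 0.42. Lung and kidney overlapped, as did liver and brain, while every heart value, up to 9.35, lay below every kidney value, from 9.96. The order is a description, because the arrays were not shown to share a scale across tissues: the 75th percentile ran from 6.37 to 6.88 in solid tissues and from 5.59 to 5.95 in blood. None of the 12 probe sets was called between hours in air rats in limma's F test, in any solid tissue. At an unadjusted p under 0.05, 2 passed in brain, 1 in heart, 2 in kidney, 1 in liver and 2 in lung. Over all probe sets the calls between hours in air rats came to 0.0805% in brain, 0.0677% in heart, 0.515% in kidney, 0.0999% in liver and 2.87% in lung. The lowest member value, adjusted p = 0.065, belonged to the second Rsrp1 probe set in lung, where air rats measured 7.45, 8.28, 8.59 and 8.78 at 3 h but 9.21 and 9.69 at 6 h.

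Of the SR protein genes, Srsf4 gave the clearest rise, in liver and kidney. Air livers at 1 h measured 8.85, 9.10, 9.16 and 9.27 and exposed livers 9.59, 9.81, 9.81 and 9.83, a difference of 0.66 ± 0.11. At 3 h air livers measured 8.77, 8.95, 9.02 and 9.23 and exposed livers 9.70, 9.87, 9.96 and 10.04, a difference of 0.90 ± 0.11 and a 1.87-fold higher signal. No air liver reached the exposed livers at either hour. Liver RNA integrity differed at 1 h, as given above. At 6 h the order had turned, with exposed livers at 8.86, 8.95, 9.01 and 9.11 and the 2 air livers at 9.34 and 9.54, a difference of -0.46 ± 0.14 that was not called (adjusted p = 0.3). These 2 air livers were the highest of all 14, whose mean was 9.07. Between hours the air livers gave an unadjusted p of 0.0077 in limma's F test (adjusted p = 0.539). The same 2 air livers enter the liver test between times given below. In kidney the 4 air rats at 1 h lay within 8.23 to 8.27 and the exposed rats at 8.47, 8.59, 8.69 and 8.72, a difference of 0.36 ± 0.07. The kidney difference at 3 h was 0.48 ± 0.07, with exposed rats at 8.67, 8.73, 8.84 and 8.94 and air rats at 8.22, 8.26, 8.29 and 8.50.

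All 4 of these Srsf4 calls held without any single rat, and those at 1 h ended in a fit of only the 2 groups (adjusted p 0.163 in kidney and 0.0851 in liver). Brain and lung gave no Srsf4 call. Differences there at 1 h and 3 h lay between -0.14 ± 0.10 and 0.11 ± 0.08. Heart gave no Srsf4 call either. At 1 h exposed hearts, from 8.58 to 8.82, lay above air hearts, from 8.24 to 8.55, a difference of 0.28 (adjusted p = 0.39). At 3 h the heart difference was 0.28, or 0.12 without the arrays that carried markers of another organ. The difference between solid tissues had an adjusted p of 0.000105 at 1 h and 1.54e-07 at 3 h, and between times of 0.000742 in liver and 0.0261 in kidney. All 4 still passed without the arrays that carried markers of another organ, and the kidney value between times ended without 5 of the 30 rats, each left out alone (up to 0.0626). Again, these contrasts had been seen when the genes were selected.

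Srsf5, an SR protein that like Srsf4 acts in both constitutive and alternative splicing, was called higher in heart, kidney and lung. Air hearts at 1 h measured 8.80, 8.99, 9.01 and 9.05 and exposed hearts 9.49, 9.72, 9.77 and 9.83, a difference of 0.74 ± 0.11 and a 1.67-fold higher signal. At 3 h air hearts measured 8.65, 8.86, 9.18 and 9.20 and exposed hearts 9.43, 9.46, 9.48 and 9.51, a difference of 0.50 ± 0.11. The exposed hearts lay above the air hearts at both hours. In kidney the difference was 0.43 ± 0.09 at 1 h, with exposed rats from 9.85 to 10.07 and air rats from 9.37 to 9.72, and 0.33 ± 0.09 at 3 h, with exposed rats from 9.84 to 10.08 and air rats from 9.52 to 9.68. In lung at 3 h it was 0.39 ± 0.11, and 1 air rat at 10.09 overlapped the exposed rats, which began at 10.07.

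Liver and brain gave similar but uncalled Srsf5 values. Exposed livers at 1 h, at 9.34, 9.39, 9.47 and 9.54, lay above air livers at 8.61, 8.86, 8.89 and 8.99, a difference of 0.60 ± 0.13 (adjusted p = 0.0592). Exposed brains at 3 h, at 9.56, 9.58, 9.80 and 9.89, lay above air brains at 9.33, 9.34, 9.38 and 9.41, a difference of 0.34 ± 0.09 (adjusted p = 0.0953). By 6 h the exposed rats lay below the air rats in kidney, liver and lung, at -0.24 ± 0.11, -0.51 ± 0.16 and -0.29 ± 0.13, but above them in brain and heart, at 0.23 ± 0.10 and 0.20 ± 0.13, with no call in any of the 5. The effect differed between times in heart, kidney and lung, with adjusted p values of 0.0271, 0.0168 and 0.0333. They were 0.0702, 0.0309 and 0.0385 without the arrays that carried markers of another organ, so the heart result ended.

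All 5 Srsf5 calls ended in a fit of only the 2 groups, with adjusted p from 0.0518 to 0.252. The heart call at 3 h ended without air rat 2 (0.0607), the kidney call at 3 h without exposed rat 3 or 4 or air rat 1 or 4 (up to 0.106), and the lung call without exposed rat 3 or air rat 1 or 2 (up to 0.0901). Without the arrays that carried markers of another organ the lung call also ended (0.0631).

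**Figure D3:**
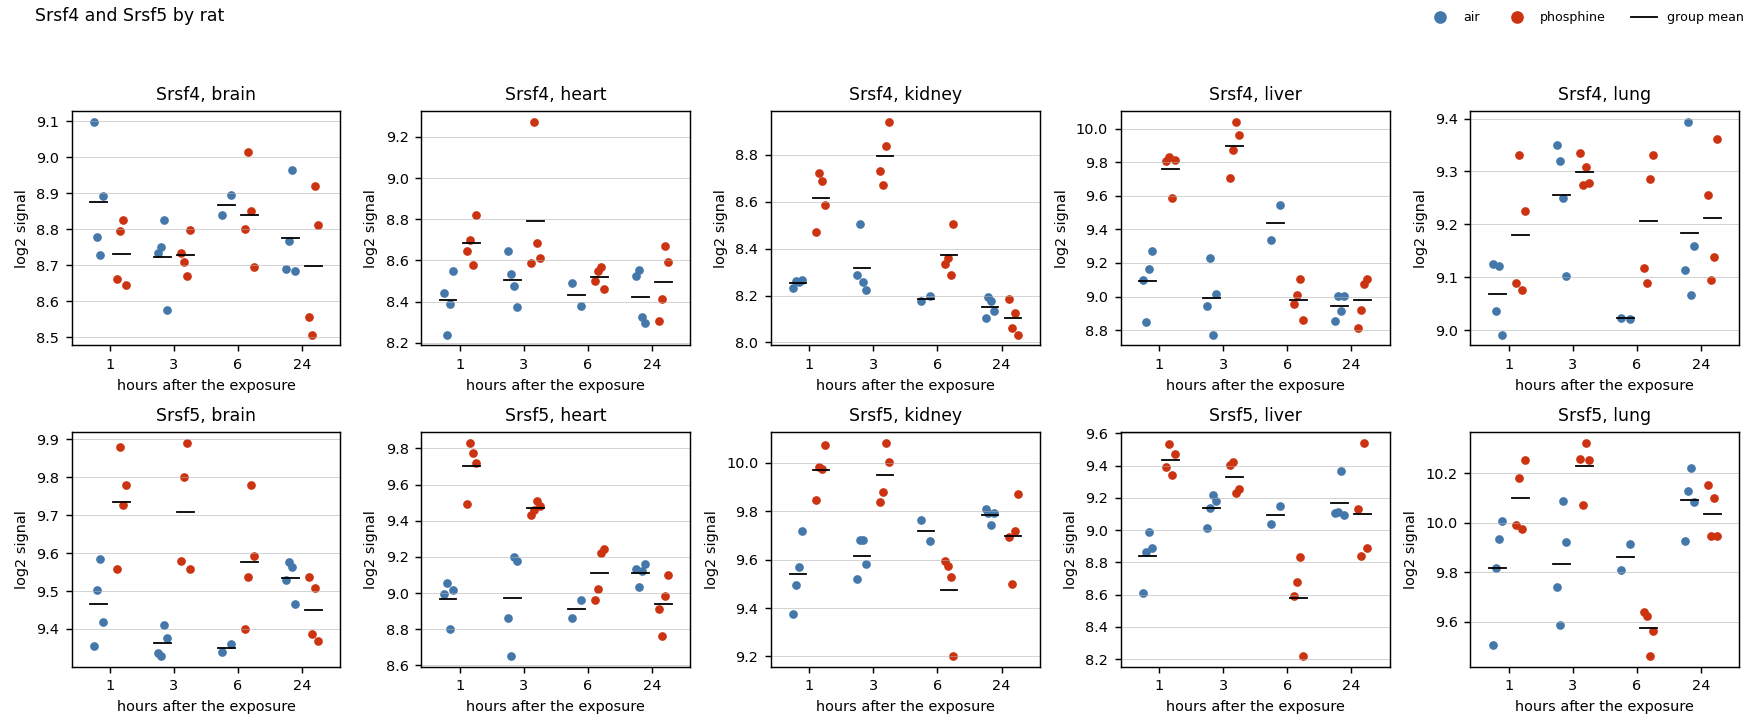
Log2 signal of Srsf4 (upper row) and Srsf5 (lower row) in each rat (points) against hours after the exposure in the 5 solid tissues, with group means as lines and a vertical scale of its own for each panel. For Srsf4, exposed rats lie above air rats in kidney and liver at 1 h and 3 h and in heart at 1 h. For Srsf5 they do so in heart, kidney and liver at 1 h and 3 h. For both genes they lie below air rats in liver at 6 h.

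Srsf2, which encodes the speckle marker SC35, was called higher in liver at 3 h on both probe sets. On 1371838_PM_at air livers measured 9.53, 9.54, 9.60 and 9.72 and exposed livers 10.11, 10.12, 10.19 and 10.25, a difference of 0.57 ± 0.13. On 1371839_PM_at the difference was 0.57 ± 0.13 as well, with exposed livers from 8.50 to 8.69 and air livers from 7.86 to 8.14. The groups were apart on both. In kidney at 3 h the first probe set gave 0.28 ± 0.07, called, and the second 0.25 ± 0.08, not called. In heart at 1 h the first gave 0.35 ± 0.09, not called, and the second 0.43 ± 0.09, called. In lung the second probe set was called at 1 h and at 3 h, at 0.35 ± 0.09 and 0.31 ± 0.09, where the first gave 0.21 ± 0.09 at 1 h and no difference at 3 h, with means of 10.60 in both groups, so the probe sets disagreed in lung at 3 h.

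Heart Srsf2 was lower in exposed rats at 24 h. The second probe set measured 7.36, 7.42, 7.46 and 7.61 in exposed hearts and 7.88, 7.99, 8.02 and 8.10 in air hearts, a difference of -0.54 ± 0.09 that was called. The first measured 9.31, 9.37, 9.46 and 9.60 in exposed hearts and 9.72, 9.74, 9.81 and 9.85 in air hearts, a difference of -0.35 ± 0.09 (adjusted p = 0.242). This was the single member call at 24 h. It ended without exposed rat 2 or 3 or air rat 1, 3 or 4 (up to 0.101). A fit of only the 2 groups also ended it (0.202). So did leaving out the 5 heart arrays that carried markers of another organ (0.072), of which 2 were exposed hearts at 24 h. Without them the differences were -0.59 on the second probe set and -0.37 on the first. The heart effect differed between times, with adjusted p of 0.0263 and 0.00237 for the 2 probe sets, and of 0.077 and 0.011 without those arrays.

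Other Srsf2 calls were also fragile. The kidney call ended without exposed rat 2 or 4 or air rat 3 (up to 0.0805), the heart call at 1 h without exposed rat 2 or 5 or air rat 3 (up to 0.109), and the lung calls without exposed rat 2 or 5 or air rat 1 at 1 h (up to 0.0909) and without exposed rat 1 or 3 or air rat 1 or 2 at 3 h (up to 0.132). Without the arrays that carried markers of another organ, the heart call at 1 h stood at 0.112 and the lung call at 3 h at 0.127. Both of these calls also ended with the air rats of all hours pooled. The liver call of the first probe set ended without air rat 3 (0.0533), and that of the second stayed at or just under the threshold (up to 0.05).

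Srsf3 and Srsf7, the smaller SR proteins that also carry mature mRNA towards export, gave 1 call in the solid tissues. The brightest Srsf3 probe set, 1374063_PM_at, ranged from -0.25 to 0.50 and was not called in any of the 20 pairs. Its largest difference was in liver at 3 h, where exposed rats measured 9.14, 9.37, 9.45 and 9.60 and air rats 8.72, 8.94, 8.95 and 8.96, 0.50 ± 0.15 (adjusted p = 0.0766). A second Srsf3 probe set, 1376252_PM_at, ranged wider, from -0.39 to 0.77, with its highest difference in liver at 3 h too, 0.77 ± 0.29 (adjusted p = 0.184). Its groups were apart there, with exposed livers at 6.06, 6.09, 6.14 and 6.52 and air livers at 5.15, 5.36, 5.49 and 5.71. Neither it nor the remaining probe set was called. The dimmest, 1379010_PM_at, had means from 2.91 to 3.50 by tissue in air rats, near the bottom of the scale. The Srsf7 probe set was as dim, with means from 2.81 to 3.74. Its lung value at 3 h was called, at 0.50 ± 0.12, with exposed rats at 3.39, 3.54, 3.54 and 3.64 and air rats at 2.82, 2.94, 3.15 and 3.17. All of these lie below the median of all values, 4.41. Without the lung arrays that carried markers of another organ its adjusted p was 0.0733. The Srsf7 call also ended with the air rats of all hours pooled, and air lungs at 1 h measured 3.28 to 3.49.

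Of the kinase genes, Clk1 was called lower in 2 of 20 pairs and Clk4 in none. Clk1 was called lower in lung at 1 h, where exposed rats measured 9.04, 9.23, 9.38 and 9.44 and air rats 9.68, 9.77, 9.92 and 10.17, a difference of -0.61 ± 0.13. In brain it was called at 3 h, with exposed rats at 7.50, 7.61, 7.72 and 7.76 and air rats at 8.09, 8.15, 8.17 and 8.40, a difference of -0.56 ± 0.12. Both pairs of groups were apart. The lung call held without any single rat, while the brain call ended without exposed rat 1 or 4 or air rat 1, 2 or 4 (up to 0.124), and each ended in a fit of only the 2 groups (0.0906 and 0.0596). Brain RNA integrity differed at that hour, as given above. Uncalled values of the same sign were seen in brain at 1 h, -0.44 ± 0.12, and in liver at 1 h, -0.53 ± 0.23, with groups apart in both. Uncalled values of the opposite sign reached 0.38 ± 0.23 in liver and 0.25 ± 0.17 in heart at 24 h, 0.24 ± 0.13 in lung at 3 h and 0.23 ± 0.17 in heart at 1 h. In kidney Clk1 stayed between -0.14 and 0.00 over the 4 hours, with SE from 0.09 to 0.11.

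Clk4 had no call in any tissue or hour. Its differences ran from -0.47 ± 0.12 in brain at 1 h (adjusted p = 0.122) to 0.38 ± 0.11 in kidney at 1 h (adjusted p = 0.0704) in the solid tissues. In that kidney comparison exposed rats measured 7.08, 7.26, 7.33 and 7.35 and air rats 6.70, 6.78, 6.89 and 7.12. The highest air rat overlapped the exposed rats. The lung effect on Clk1 differed between times (adjusted p = 0.0211, or 0.0613 without the arrays that carried markers of another organ), and between solid tissues at 1 h its adjusted p was 0.0564, or 0.0449 with the rat as a block.

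Counted by tissue, the member calls at 1 h were 2 lower in brain (0.0677% of all probe sets were called lower there), 2 higher and 1 lower in heart (0.686% and 0.193%), 2 and 2 in kidney (1.56% and 0.657%), 1 and 2 in liver (0.151% and 0.0644%) and 1 and 3 in lung (1.63% and 2.12%). At 3 h they were 1 lower in brain (0.0934%), 1 higher in heart (0.683%), 3 higher and 2 lower in kidney (2.1% and 2.16%), 3 and 2 in liver (1.37% and 1.2%) and 3 higher in lung (4.39%). At 24 h 1 was lower in heart (0.00966%). Over the 5 tissues this made 6 higher and 10 lower at 1 h and 10 higher and 5 lower at 3 h, and the 5 became 1 without exposed rat 3 or air rat 4. Nothing is read from these shares, because the members were selected on these contrasts. At 6 h limma called 0 of 60 member values in the solid tissues, against 0.128% of all values, and 20 of the 60 had an unadjusted p under 0.05, against 7.58%. With array weights 5 of the 60 were called, and with the air rats of all hours pooled 8 were. At 24 h 1 of 60 was called, against 0.00773%, and 3 had an unadjusted p under 0.05, against 4.76%.

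The effect differed between times for 0 of 12 probe sets in brain, 3 in heart, 2 in kidney, 3 in liver and 6 in lung, where the shares of all probe sets were 0.0483%, 0.219%, 1.04%, 0.258% and 4.9%. In brain 0 passed in limma's F test, and no other tool was run. Without the arrays that carried markers of another organ the total over the 5 tissues fell from 14 to 7, and 6 of the 14 held when each rat was left out in turn. Between solid tissues 1 differed at 1 h, 4 at 3 h, 3 at 6 h and 1 at 24 h, against 2.48%, 11.2%, 1.07% and 0.296% of all probe sets. All 9 of these still passed without the arrays that carried markers of another organ. With the rat as a replicate block the counts became 2, 6, 3 and 1.

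In blood, Clk1 and 1 probe set each of Rsrp1 and Srsf3 were called lower at 3 h. Clk1 measured 4.82, 6.41, 7.56 and 7.83 in exposed blood and 8.50, 8.62, 8.74 and 8.83 in air blood, a difference of -2.02 ± 0.55. The second Rsrp1 probe set measured 4.70, 4.74, 4.82 and 5.62 in exposed blood and 6.34, 6.40, 6.53 and 7.39 in air blood, -1.70 ± 0.37. Srsf3 on 1374063_PM_at measured 7.11, 7.48, 7.85 and 8.39 in exposed blood and 8.90, 8.94, 9.09 and 9.14 in air blood, -1.31 ± 0.29. The first Rsrp1 probe set gave -0.84 ± 0.31 with overlapping groups and no call (adjusted p = 0.139), and the other Srsf3 probe sets gave -0.22 ± 0.52 and 0.07 ± 0.27. The groups were apart in the 3 called, as for 11.6% of all probe sets, and for Clk1 the exposed samples were spread much wider than the air samples. Over all probe sets 2.64% were called lower in blood at 3 h, and the median difference was -0.87 over the 12 member probe sets and 0.03 over all.

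A B cell marker was also called lower in blood at 3 h. Cd79b, part of the B cell receptor, was lower by -1.52 ± 0.34 in the same samples (adjusted p = 0.021), with overlapping groups. It is 1 of 5 measured blood markers of 6 listed, and the red cell genes Alas2 and Slc4a1 gave 0.08 ± 0.19 and -0.01 ± 0.29 and the neutrophil genes S100a8 and S100a9 0.63 ± 0.26 and 0.31 ± 0.23, without calls. For both neutrophil genes the exposed samples lay above the air samples without overlap, and groups were apart for 11.6% of all probe sets. The mean of the blood list was 10.65 to 11.01 in exposed blood and 10.91 to 11.11 in air blood, and no listed marker was near the bottom of the scale. The part of these markers in the member values was not tested. The blood calls ended without exposed rat 2 or air rat 3 for Rsrp1 (up to 0.066), without exposed rat 2 or 3 or air rat 1, 3 or 4 for Srsf3 (up to 0.0865) and without exposed rat 2 or 3 or air rat 1, 2, 3 or 4 for Clk1 (up to 0.196). With blood air of all hours pooled, 0 of the 3 were called, and after quantile normalization within tissue 1 was, that of Rsrp1. The Clk1 call also ended in a fit of only the 2 groups (0.0682). At 1 h and 6 h no member was called in blood. Clk1 gave -1.53 ± 0.55 at 1 h and, with 1 air sample, 1.78 ± 0.86 at 6 h.

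How members vary together between rats of the same group was not itself a basis of the selection. The same deviations do set the spread in the contrasts on which the genes were selected, so the measure is not independent of them. Each solid-tissue array was expressed as its deviation from the mean of its own group, which removes tissue, hour and exposure. Over 150 arrays the deviations of Rsrp1 on its first probe set had a Pearson r of 0.597 with Clk1 and 0.581 with Clk4, and those of Clk1 and Clk4 had an r of 0.683. On the second Rsrp1 probe set the r was lower, 0.405 with Clk1 and 0.263 with Clk4. The arrays share rats across tissues and the same normalization, so these r values are descriptions. They include the 11 arrays that carried markers of another organ, and r without these was not examined. On the first probe set Rsrp1 with Clk1 gave 0.428 in brain, 0.382 in heart, 0.568 in kidney, 0.704 in liver and 0.862 in lung, each over 30 arrays. With Srsf4 it gave -0.152 over all 150, with Srsf3 -0.06 and with Srsf5 0.295, and on the second probe set the r was -0.187 with Srsf4, 0.139 with Srsf5 and 0.245 with the second probe set of Srsf2, near the value for Clk4. The 2 Rsrp1 probe sets gave an r from 0.76 to 0.883 in heart, kidney, liver and lung and 0.269 in brain.

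Among other single genes whose mean lay above the median of all values, those most like Rsrp1 on its first probe set by this measure were Luc7l3 (0.626), Clk1, Hnrnpa2b1 (0.593), Clk4 and Gin1 (0.57). Those most like Clk1 were Pnisr (0.742), Ccnl2 (0.717), Hnrnpa2b1 (0.716), Pabpn1 (0.692) and Clk4. Luc7l3 encodes a U1-associated protein rich in arginine and serine, Hnrnpa2b1 an hnRNP, Ccnl2 a speckle cyclin and Pabpn1 the nuclear poly(A)-binding protein.

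**Figure D4:**
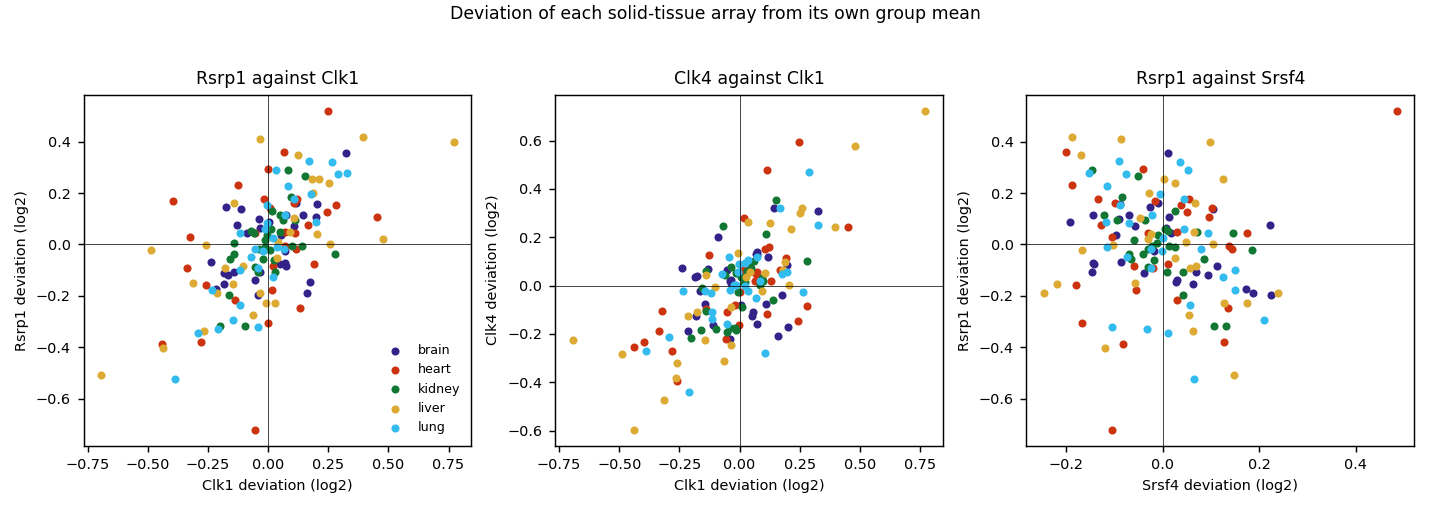
Deviation of each of 150 solid-tissue arrays from the mean of its own group (log2), Rsrp1 against Clk1 (left), Clk4 against Clk1 (middle) and Rsrp1 against Srsf4 (right), coloured by tissue and on the first probe set of each gene. The points rise from lower left to upper right in the first panel (r 0.597) and the second (r 0.683), and show no such slope in the third (r -0.152).

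Promoter sequence was set beside the genes that rose (Srsf4 and Srsf5) and the kinase pair that varied together (Clk1 and Clk4). Windows of 250 bases before and 50 after the start, from RefSeq on GRCr8, were found for 7 of the 8 members, with 8 entries since Clk4 has 2. No entry was found for Rsrp1. The build behind the arrays' probes is not given in the sources used here, so the windows are named by gene. Each was searched on both strands for the cyclic AMP response element TGACGTCA, its shorter core TGACG, which the full element contains, and the heat shock element core GAANNTTC. Capitals mark that core on either strand. Srsf4 is at chr5:149345288-149345587 (plus strand), Srsf5 at chr6:106336506-106336805 (plus strand), Clk1 at chr9:67453131-67453430 (minus strand) and the second Clk4 entry at chr10:36025490-36025789 (plus strand).
Srsf4: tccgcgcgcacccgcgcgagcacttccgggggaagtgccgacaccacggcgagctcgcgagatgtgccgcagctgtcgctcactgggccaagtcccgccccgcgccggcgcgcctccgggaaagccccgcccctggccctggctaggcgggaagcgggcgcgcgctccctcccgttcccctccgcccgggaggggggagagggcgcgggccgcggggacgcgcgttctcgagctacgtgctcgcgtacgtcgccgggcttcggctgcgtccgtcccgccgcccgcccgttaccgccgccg
Srsf5: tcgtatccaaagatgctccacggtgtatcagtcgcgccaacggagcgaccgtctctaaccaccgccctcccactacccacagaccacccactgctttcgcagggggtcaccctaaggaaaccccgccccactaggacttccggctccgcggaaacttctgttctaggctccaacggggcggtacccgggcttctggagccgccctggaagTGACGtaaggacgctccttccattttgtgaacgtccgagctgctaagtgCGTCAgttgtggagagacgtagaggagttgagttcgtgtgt
Clk1: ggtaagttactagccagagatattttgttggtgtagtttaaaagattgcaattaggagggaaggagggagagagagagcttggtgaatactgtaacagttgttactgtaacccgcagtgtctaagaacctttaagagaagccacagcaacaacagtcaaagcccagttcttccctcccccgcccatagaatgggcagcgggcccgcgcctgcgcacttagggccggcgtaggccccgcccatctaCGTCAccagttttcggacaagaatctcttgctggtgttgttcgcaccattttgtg
Clk4: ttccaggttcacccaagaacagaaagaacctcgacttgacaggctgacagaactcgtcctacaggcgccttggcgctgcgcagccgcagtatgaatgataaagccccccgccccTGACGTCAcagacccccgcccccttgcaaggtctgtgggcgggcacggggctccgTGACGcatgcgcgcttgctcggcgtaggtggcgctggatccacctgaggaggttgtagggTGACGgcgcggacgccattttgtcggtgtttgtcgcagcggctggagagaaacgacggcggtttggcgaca

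Srsf5 has 2 cores, Clk1 has 1 and the Clk4 window has 4, of which an overlapping pair makes up the full element. The Srsf4 window has none of the motifs and a GC content of 78.3%, against a median of 51.7% over all promoters. The core was in 4 of the 8 member windows, those of Srsf3, Srsf5, Clk1 and Clk4, and in 21.2% of 33469 promoters. The full element was in 1 member window and in 1.83% of promoters, and the heat shock core in 1, that of Srsf5, and in 8.59%. Genes called higher and genes called lower both held the core. A match is a run of letters and shows no binding, and a window without one says nothing of the factor.

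The other splicing genes were examined in 6 lists of 101 genes, of which 87 were on the array with 155 probe sets. Under 1 in 10 were called in any solid tissue at any hour, and their median difference stayed between -0.08 and 0.11. In kidney 8 of the 155 probe sets were higher and 0 lower at 1 h (1.56% and 0.657% over all probe sets), and 5 and 1 at 3 h (2.1% and 2.16%). In liver 1 was higher at 1 h (0.151%), and 8 higher and 3 lower at 3 h (1.37% and 1.2%). Lung had 2 and 3 at 1 h (1.63% and 2.12%) and 9 and 5 at 3 h (4.39% and 4.88%). Heart had 2 higher at 1 h (0.686%). Brain had 0 at 1 h and 3 h in limma, with 24 and 10 of 155 at an unadjusted p under 0.05, against 10% and 7.33% of all probe sets. At 6 h and 24 h no probe set was called in any solid tissue, with 8 to 26 and 0 to 14 of 155 at an unadjusted p under 0.05. Over all probe sets the shares at that p ran from 5.56% to 8.74% at 6 h and from 2.87% to 6.43% at 24 h. The 26 were in lung at 6 h, against 8.67% of all probe sets.

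These counts moved with single rats. Over the 5 tissues they came to 13 higher and 3 lower at 1 h and 22 and 9 at 3 h. Leaving out each rat in turn gave 6 to 21, 1 to 6, 9 to 25 and 4 to 12, with the 9 reached without air rat 2. Of 44 calls on named genes in solid tissues, 18 held without each rat and 17 ended without the arrays that carried markers of another organ. The genes described next are marked where leaving out a single rat, or these arrays, ended the call. Of the 44 calls, 28 were on genes with several probe sets, and 2 of these had another probe set called.

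Among the hnRNP genes, whose products often oppose SR proteins at splice sites, 19 of 22 were on the array. Hnrnpdl rose in kidney, liver and lung. It was higher by 0.48 ± 0.09 at 1 h and 0.64 ± 0.09 at 3 h in kidney (adjusted p 0.00233 and 4.76e-05, 1372810_PM_at). In liver it was higher by 0.74 ± 0.16 and 0.87 ± 0.16 (0.0326 and 0.00154, 1371333_PM_at). In lung it was higher by 0.54 ± 0.11 at 1 h (0.00331, 1371333_PM_at) and 0.67 ± 0.12 at 3 h (0.000812, 1372810_PM_at). The other of these probe sets was also called in kidney at 1 h and in lung at 3 h (0.0418 and 0.0138) but not in kidney at 3 h (0.184), in liver (0.27 and 0.0555) or in lung at 1 h (0.0648). The remaining Hnrnpdl probe set, 1378967_PM_at, was called in none of the 6. All of these held without each rat except liver at 1 h, which ended without exposed rat 2, 4 or 5, or air rat 1, 2, 3 or 4 (up to 0.19). That liver call also ended without the arrays that carried markers of another organ. Hnrnpm fell by 0.35 in kidney and by 0.61 in liver at 3 h (0.00814 and 0.00296), and both held. Hnrnpa2b1, close to Rsrp1 in its variation within groups, rose by 0.92 ± 0.21 on 1373540_PM_at in heart at 1 h (0.0322), where Rsrp1 was lower. The other Hnrnpa2b1 probe sets gave 0.15 and 0.05 there, neither called. The heart call ended without exposed rat 2, 4 or 5, or air rat 2, 3 or 4 (up to 0.157). It also ended without the arrays that carried markers of another organ, with the air rats of all hours pooled and in a fit of only the 2 groups.

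Of the SR-related and speckle genes 21 of 24 were on the array. Son, a scaffold of nuclear speckles, rose by 0.85 ± 0.12 in kidney (adjusted p = 0.000239) and 0.48 ± 0.10 in lung (0.00477) at 1 h on 1389173_PM_at, while its other 4 probe sets were not called there. U2af1, the small subunit that reads the end of an intron, rose by 0.90 ± 0.13 in liver at 3 h (0.000132). Ddx5, an RNA helicase, rose by 0.53 ± 0.09 in heart at 1 h (0.00196), and Bclaf1 by 0.49 ± 0.10 in kidney at 3 h (0.00494). All of these held without each rat. Luc7l3, the gene most like Rsrp1 within groups, fell by 0.56 in lung at 1 h (0.0256), with overlapping groups, and the call ended without exposed rat 2, 4 or 5, or air rat 3 or 4 (up to 0.108). It also ended without the arrays that carried markers of another organ. Srrm2, a core speckle protein, fell by 0.57 in lung at 3 h (0.0239), which ended without exposed rat 3 or 4 or air rat 1 or 4 (up to 0.107). Direction was therefore mixed within the list.

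Of 7 other SR protein genes on the array, Tra2a, a splicing activator, fell by 0.76 in lung at 1 h (adjusted p = 0.000406), and Srsf6 rose by 0.38 ± 0.09 in lung at 3 h (0.00648), and both held without each rat. Without the arrays that carried markers of another organ the Srsf6 call ended. Of 6 other SR protein kinase genes, Dyrk1a fell by 0.76 in liver at 3 h (0.0392), which ended without exposed rat 3 or 4 or air rat 1, 2, 3 or 4 (up to 0.124). Prpf4b rose by 0.35 ± 0.11 in lung at 3 h (0.0431), with overlapping groups, which ended without exposed rat 1, 3 or 4, or air rat 1, 2 or 3 (up to 0.172). The other Prpf4b probe sets gave 0.11 and -0.30 in lung at 3 h, neither called. The Dyrk1a and Prpf4b calls also ended without the arrays that carried markers of another organ. Of 32 core spliceosome genes on the array, Sf3b1, a subunit that binds the branch site, rose by 0.44 ± 0.10 in liver at 3 h (0.0096) on 1 of its 3 probe sets and held. In lung at 3 h 4 genes of this list were higher and 1 lower. The higher ones were Eftud2, Snrpa, Sf3a3 and Snrpb, at 0.33, 0.32, 0.29 and 0.29 (adjusted p from 0.0406 to 0.0461). All 4 ended without the arrays that carried markers of another organ, and each without at least 4 of the rats left out in turn.

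Cirbp and Rbm3, RNA-binding genes known to rise when cells cool, rose in kidney and liver. Rbm3 was higher by 0.72 ± 0.14 and 0.57 ± 0.14 in kidney at 1 h and 3 h (adjusted p 0.00729 and 0.0203) and by 0.88 ± 0.21 in liver at 3 h (0.0197). The first of these held without each rat, the second ended without exposed rat 3 or air rat 1 or 2 (up to 0.104) and the third without exposed rat 3 or 4 or air rat 1, 2 or 3 (up to 0.0715). Cirbp was higher by 0.41 ± 0.11 in kidney at 1 h on 1369083_PM_at (0.0433) and by 0.47 ± 0.13 in liver at 3 h on 1385904_PM_at (0.0468). Its calls ended without exposed rat 2 or 5 or air rat 1, 2, 3 or 4 (up to 0.158) and without exposed rat 1, 2 or 4, or air rat 1, 2, 3 or 4 (up to 0.155). Both Cirbp calls also ended without the arrays that carried markers of another organ. Body temperature is not given in the sources used here. Heart Rbm3 gave 0.60 ± 0.16 at 1 h, which was not called (0.0791).

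Blood at 3 h gave lower values for the other splicing lists as well. There 18 of 155 probe sets, of 16 genes, were called lower and 0 higher, with 73 at an unadjusted p under 0.05 (18.1% of all probe sets). The median difference was -0.69 over the lists. The difference was -2.37 for Srsf6 (adjusted p = 0.0103), -2.29 for Hnrnph1 (0.0264), -2.06 for Pnn, a speckle protein (0.0206), and -1.97 for Luc7l3 (0.0139). It was -1.66 for Srsf1, the founding SR protein (0.0312), and -1.61 for the kinase gene Srpk1 (0.0474). The Luc7l3 value came from 1399018_PM_at, and the other Luc7l3 probe sets went the other way, at 0.54, 0.18 and 0.49, none called. Pnn was read on 1383336_PM_at, and its other probe sets gave -1.11, 0.34 and -0.37, none called. The other probe sets of Srsf6 gave -1.28, also called, and -0.72, not called. Those of Srsf1 and Srpk1 gave -1.15 and -0.95, not called. Of 16 named calls in blood 1, that of Srsf6, held without each rat. Only 1 probe set was called without exposed rat 2, 2 were called after quantile normalization within tissue, and 1 with blood air of all hours pooled. The Cd79b difference given above came from the same samples, and its part in these values was not tested.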

How the data were processed

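Total RNA of rat tissues and blood was hybridised to single-colour Affymetrix arrays. The deposited numbers are on the log2 scale, 1 per probe set and array, and come from RMA and Partek, per the submitters' processing notes. Program versions are not given in the sources used here, nor is it stated there whether RMA was run on all tissues at once. Arrays carry no read counts, and precision is limited by the number of rats.

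Genes were named from the platform annotation: 19063 probe sets list 1 gene, 572 several and 11407 none, and 97 control probe sets were left out. No dim probe set was dropped. Within each tissue limma (version 3.58.1, in R 4.3.3, with the data.table package at version 1.17.8) estimated every group of exposure and hour, followed by eBayes and Benjamini-Hochberg adjustment over 31042 probe sets. The fit was tested on simulated data. A gene's first probe set has the highest mean over all arrays. Effects between times, between tissues and between hours in air rats were tested with moderated F. The rat block used duplicateCorrelation on 7761 probe sets (correlation 0.0237), and its pairing comes from the rat numbers in the labels. Figures used Python 3.11.15 and matplotlib 3.10.9.

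The members and lists were chosen with earlier results of these data known. Besides all members, the rule named up to 4 called genes per list, tissue and hour with the largest differences and a group mean above 4.41, of which a part is printed. It also named Cirbp and Rbm3, and the 5 genes most like Rsrp1 and Clk1. The labels name each rat, and p-values measure the spread between rats.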

Additional observations from a re-analysis of the deposited data

Results flagged for a closer look

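Of 400 groups of 4 or 5 samples tested over the brighter member probe sets, 18 held a rat whose gap to the nearest other rat was above Dixon's limit. Chance alone flags about 1 in 20 groups, and no rat was left out for this. A rat stood far from its group for Srsf5 in air rat 3 (1368992_PM_a_at, air liver, 24 h) at 9.37, Srsf5 in exposed rat 4 (1368992_PM_a_at, exposed kidney, 6 h) at 9.20 and Srsf2 in exposed rat 2 (1371838_PM_at, exposed liver, 1 h) at 10.10. The same held for Srsf2 in exposed rat 3 (1371838_PM_at, exposed liver, 24 h) at 9.96, Srsf2 in exposed rat 4 (1371839_PM_at, exposed brain, 3 h) at 7.91 and Srsf2 in exposed rat 3 (1371839_PM_at, exposed lung, 24 h) at 8.38. Others were Srsf3 in air rat 3 (1374063_PM_at, air liver, 3 h) at 8.72, Srsf3 in air rat 3 (1374063_PM_at, air brain, 24 h) at 9.66 and Srsf3 in exposed rat 1 (1374063_PM_at, exposed kidney, 6 h) at 9.68. Others again were Srsf3 in air rat 3 (1376252_PM_at, air heart, 1 h) at 5.20, Srsf3 in exposed rat 4 (1376252_PM_at, exposed liver, 6 h) at 5.56 and Srsf4 in exposed rat 4 (1381623_PM_at, exposed liver, 1 h) at 9.59. The same was seen for Srsf4 in exposed rat 2 (1381623_PM_at, exposed heart, 3 h) at 9.27, Rsrp1 in exposed rat 1 (1390943_PM_at, exposed blood, 3 h) at 5.62 and Rsrp1 in air rat 1 (1390943_PM_at, air liver, 24 h) at 9.45. Last came Rsrp1 in exposed rat 3 (1398364_PM_at, exposed kidney, 24 h) at 10.19, Rsrp1 in air rat 2 (1398364_PM_at, air heart, 24 h) at 8.50 and Clk4 in exposed rat 1 (1399141_PM_at, exposed kidney, 3 h) at 7.01. The Srsf4 heart value of exposed rat 2 came from an array that also carried liver markers, 8.09 log2 units above the median of hearts. The part of these in the value was not tested.

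The effect of phosphine differed between the 4 hours, by limma's moderated F with Benjamini-Hochberg adjustment, in 14 cases of probe set and tissue, from 8 of the 12 member probe sets. Without the arrays that carried markers of another organ 7 of the 14 still passed. Adjusted p in liver was 0.0169 for Rsrp1 (1398364_PM_at), 0.0234 for Rsrp1 (1390943_PM_at) and 0.000742 for Srsf4 (1381623_PM_at). Adjusted p in lung was 0.028 for Rsrp1 (1398364_PM_at), 0.00253 for Rsrp1 (1390943_PM_at), 0.00531 for Srsf2 (1371839_PM_at), 0.0333 for Srsf5 (1368992_PM_a_at), 0.0417 for Srsf7 (1380391_PM_at) and 0.0211 for Clk1 (1399022_PM_at). Adjusted p in heart was 0.0263 for Srsf2 (1371838_PM_at), 0.00237 for Srsf2 (1371839_PM_at) and 0.0271 for Srsf5 (1368992_PM_a_at). Adjusted p in kidney was 0.0261 for Srsf4 (1381623_PM_at) and 0.0168 for Srsf5 (1368992_PM_a_at). 

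Between the 5 solid tissues the effect differed in 9 cases by the same test. At 1 h the adjusted p was 0.000105 for Srsf4 (1381623_PM_at). At 3 h the adjusted p was 0.00777 for Rsrp1 (1390943_PM_at), 0.000543 for Srsf2 (1371838_PM_at), 0.0305 for Srsf3 (1374063_PM_at) and 1.54e-07 for Srsf4 (1381623_PM_at). At 6 h the adjusted p was 0.0116 for Srsf2 (1371839_PM_at), 0.045 for Srsf4 (1381623_PM_at) and 0.0142 for Srsf5 (1368992_PM_a_at). At 24 h the adjusted p was 0.013 for Srsf2 (1371839_PM_at). The genes had been selected on these contrasts, so the values describe where the differences lie.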

How the results depend on the processing

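No member value that was called changed sign under any alternative. Of 35 member calls, 9 held under every alternative setting, 15 held without each rat and 6 held under both. As reported, the 12 member probe sets in 5 solid tissues, 60 values an hour, gave 6 higher and 10 lower at 1 h, 10 and 5 at 3 h, 0 at 6 h and 1 at 24 h, and blood gave 3 lower at 3 h. The other splicing lists gave 13, 3, 22 and 9, and 18 lower in blood, and 14 member effects differed between times.

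A fit of only the 2 groups, with fewer residual degrees of freedom, ended 22 calls. It gave 0 member values higher and 4 lower at 1 h, 5 and 2 at 3 h and 0 at 24 h, and 0, 1, 9 and 5 for the other lists. It gives no value for differences between times. Pooling the air rats of all hours gave 8 members at 6 h, 2 at 24 h and 0 in blood. The other lists then stood at 25, 15, 39 and 14, with 1 in blood, and 27 effects differed between times. Without the arrays carrying markers of another organ there were 0 members at 24 h, 1 of the other lists lower at 1 h, 14 higher at 3 h, and 7 differences between times. Quantile normalization gave 1 member and 2 of the other lists lower in blood. With 1 probe set per gene, 5 members were lower at 1 h, 3 lower at 3 h and 0 at 24 h, and 1 of the other lists was lower at 1 h. Trend and robust eBayes gave 29 of the other lists in blood. Array weights gave 5 members at 6 h, 2 at 24 h, 10 of the other lists lower at 1 h and 28 in blood. The cause of these changes was not tested.

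Leaving out each rat in turn gave 4 to 9 members higher and 7 to 11 lower at 1 h, 7 to 12 and 1 to 5 at 3 h, 0 to 0 at 6 h, 0 to 1 at 24 h and 0 to 4 in blood. The blood count was 0 without exposed rat 2 or air rat 3, and the 3 h lower count was 1 without exposed rat 3 or air rat 4. The other lists gave 6 to 21, 1 to 6, 9 to 25 and 4 to 12, and 1 to 27 in blood, where the 1 was without exposed rat 2. Differences between times ranged from 10 to 16. With the rat as a replicate block the differences between tissues went from 1 to 2 at 1 h and from 4 to 6 at 3 h, and stayed at 3 and 1. Exposed and air rats are different animals, so no block applies to their difference. Alternatives for single genes of the other lists were chosen after seeing the data. Array median centring and leaving out dim probe sets moved no count by over 1.5 times. Tests of levels between tissues were not run, with their 2 alternatives, because a shared scale across tissues was not shown. Dim probe sets, such as that of Srsf7, and 2 air rats at 6 h limit what these arrays can show.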

Other observations

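Blood at 24 h has 2 exposed samples and no air sample, so it enters no comparison. Rsrp1 measured 9.10 and 9.38 on its first probe set and 6.11 and 6.45 on its second, and Clk1 measured 7.41 and 7.60.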
